A study of Mus musculus with 21 samples.

Results

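The genes of glycolysis and of the response to low oxygen were followed in cultured mouse natural killer (NK) cells that lacked Ikaros, Aiolos or both. The list named 40 genes by symbol and was drawn up with earlier results of these data known. A row was found for 36 of the 40, among 11736 genes in the deposited table. Pfkm, Tpi1, Eno2 and Pfkfb4 were not analysed here. Aldoa had 2 rows, with identical values, and was counted once. All 36 passed the filter on low values, an RPKM (reads scaled to gene length and to library size) of at least 1 in at least 3 libraries, which 10032 genes passed in all. RPKM allows levels to be compared between genes.

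Glycolysis splits glucose into pyruvate. A preparatory phase spends ATP to make triose phosphates, and a pay-off phase recovers ATP and NADH. Cells that turn pyruvate into lactate regenerate the NAD that the pathway needs and export the lactate. HIF-1 alpha, encoded by Hif1a, is a transcription factor subunit that prolyl hydroxylases of the EGLN family mark for degradation when oxygen is present. When it is stabilised it raises transcription of glucose transporters, most glycolytic enzymes and further targets, among them its own hydroxylases. NK cells raise glucose uptake and glycolysis when cytokines activate them. Ikaros (gene Ikzf1) and Aiolos (gene Ikzf3) belong to the same family of zinc finger proteins, which regulate transcription in lymphocytes.

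The NK cells came from the spleens of mice in which Ikzf1, Ikzf3 or both had been deleted conditionally in NK cells, or of mice with the Cre recombinase alone, and were then kept in interleukin 15 (IL-15) at 50 ng/ml. The groups were the Ikzf1/Ikzf3 knockout (DKO, 3 libraries, S5 to S7), the Ikzf1 knockout (S12 to S15, 4 libraries of Ikzf1 KO cells), the Ikzf3 knockout (S1 to S4, 4 libraries of Ikzf3 KO cells) and Cre only (S16 to S19, 4 libraries). Values per library are given in this numbering. Cre was present in all 4 groups, so an effect of Cre itself cannot be seen in these comparisons. The mouse age, sex and Cre line are not given in the sources used here. The labels speak of biological replicates. They do not say whether animals were pooled, so the p-values measure the spread between these libraries.

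Recovered depth was 8.613 to 21.25 megareads per library. Ikzf1 averaged 30.3 ± 7.12 RPKM in DKO cells and 19.1 ± 0.662 in Ikzf1 KO cells, against 61.9 ± 5.22 in Cre only cells (SD, n = 3, 4 and 4). Ikzf3 averaged 21.5 ± 1.96 RPKM in DKO cells and 17.8 ± 2.37 in Ikzf3 KO cells, against 41.8 ± 3.68 in Cre only cells (SD, n = 3, 4 and 4). The deleted genes were thus lower in the libraries labelled for them but far from 0, and Ikzf1 was higher in DKO than in Ikzf1 KO cells (log2 fold change 0.63 ± 0.14, SE, adjusted p = 0.0119, limma). The table gives values of whole genes, so reads of deleted and undeleted exons cannot be told apart. All 9 NK markers with a row were present in every group. Their summed RPKM was 3090 to 5880 in DKO libraries, 14500 to 17000 in Ikzf1 KO libraries, 5140 to 9270 in Ikzf3 KO libraries and 11800 to 14600 in Cre only libraries. Most of that sum was Gzma, a granzyme, with means of 3080 RPKM in DKO cells and 10900 RPKM in Cre only cells, and perforin (Prf1) had means of 35.5 RPKM in DKO cells and 720 RPKM in Cre only cells, whereas the receptor gene Ncr1 had means of 201 RPKM in DKO cells and 147 RPKM in Cre only cells. Of 8 T cell markers 6 had a row, and their summed RPKM was 139 to 294 in DKO libraries, 18.6 to 59.4 in Ikzf1 KO libraries, 60.2 to 73.1 in Ikzf3 KO libraries and 20 to 79.5 in Cre only libraries. Most of the DKO sum was Cd3d, Cd3g and Cd3e, with means of 135, 46.3 and 37.3 RPKM. Cd4 and Cd8a had means below 1 RPKM in every group, and Cd8a was lower in DKO (0.0438) than in Cre only cells (0.293). Markers of innate lymphoid cells of type 1 (ILC1), 6 of 7 with a row, summed to 418 to 428 RPKM in DKO libraries, 384 to 429 in Ikzf1 KO libraries, 30.5 to 65 in Ikzf3 KO libraries and 75.9 to 214 in Cre only libraries. Most of the DKO sum was Tmem176a and Tmem176b, with means of 110 and 238 RPKM. Itga1 alone of these markers had a lower mean in DKO (5.63 RPKM) than in Cre only cells (8.98 RPKM). The B cell list had 1 gene with a row, Cd79b, with at most 2.23 RPKM in a library. Pf4, of platelets, was listed at 0 outside the DKO libraries. Of the 10 myeloid markers 5 had a row, with 371 to 493 summed RPKM in DKO libraries and 542 to 771 in Cre only libraries, most of it Fcer1g, which NK cells also express. In bulk RNA, fewer cells of a kind and less RNA per cell cannot be told apart, and whether other cells had a part in the results was not tested.

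The binding motif of HIF was common in the promoters of the genes. RefSeq promoters (build GRCm38.p6, from 250 bases before a start to 50 after it) were found for 34 of the 36 genes, as 49 promoters, since some genes have several starts. The HIF core ACGTG, read on both strands, lay in 29 of the 49 (59.2%), in 26 genes. It lay in 19.6% of all 32851 promoters and in 26.4% of the 9670 promoters of genes that passed the filter. With GCGTG counted as well, the shares were 77.6% of the 49, 43.8% of all and 62.7% of those of genes that passed the filter. The core TGGGAA, which Ikaros and its relatives bind, lay in 12 of the 49 (24.5%), against 25.6% of all promoters and 22.6% of those of genes that passed. Motifs on both strands can overlap, as in CACGTG. A match describes the sequence and does not show binding, and base composition was not matched. The list was drawn up to include known HIF targets, so the share of the HIF core is not independent of that choice. The promoters of Egln3 and Ankrd37, the genes with the largest spread between libraries, and of Gapdh and Pgk1, which fell in DKO cells, are printed with both forms of the HIF core, on either strand, in capitals.
Egln3 promoter, chr12:54203825-54204124, minus strand: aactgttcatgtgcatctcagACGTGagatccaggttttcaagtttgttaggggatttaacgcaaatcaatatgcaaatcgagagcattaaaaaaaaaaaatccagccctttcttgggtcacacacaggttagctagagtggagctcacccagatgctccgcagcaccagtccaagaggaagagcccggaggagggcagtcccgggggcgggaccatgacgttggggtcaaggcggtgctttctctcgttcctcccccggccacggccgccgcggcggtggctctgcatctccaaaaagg
Ankrd37 promoter, chr8:45999801-46000100, minus strand: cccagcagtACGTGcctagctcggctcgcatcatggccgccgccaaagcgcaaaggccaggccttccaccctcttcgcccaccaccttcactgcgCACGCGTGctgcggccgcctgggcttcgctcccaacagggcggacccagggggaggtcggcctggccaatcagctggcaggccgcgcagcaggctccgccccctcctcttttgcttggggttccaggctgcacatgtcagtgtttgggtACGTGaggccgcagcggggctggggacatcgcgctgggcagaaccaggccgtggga
Gapdh promoter, chr6:125165724-125166023, minus strand: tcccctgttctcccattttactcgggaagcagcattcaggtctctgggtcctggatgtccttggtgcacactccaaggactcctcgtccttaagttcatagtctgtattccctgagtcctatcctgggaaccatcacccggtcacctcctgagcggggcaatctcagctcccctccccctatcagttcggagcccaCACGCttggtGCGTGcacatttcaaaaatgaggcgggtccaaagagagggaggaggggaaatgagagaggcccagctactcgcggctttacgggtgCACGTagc
Pgk1 promoter, chrX:106186850-106187149, plus strand: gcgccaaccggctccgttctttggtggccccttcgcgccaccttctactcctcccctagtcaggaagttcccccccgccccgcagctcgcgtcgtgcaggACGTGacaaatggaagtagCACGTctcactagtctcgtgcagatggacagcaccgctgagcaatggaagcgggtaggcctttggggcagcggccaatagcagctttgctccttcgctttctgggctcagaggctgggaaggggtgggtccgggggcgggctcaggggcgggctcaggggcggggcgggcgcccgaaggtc

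Glycolytic genes as a group were lower in DKO cells than in Cre only and Ikzf3 KO cells. A gene was called where its adjusted p was below 0.05 (limma on log2(RPKM + 0.5), 2-sided, Benjamini-Hochberg adjustment over all 10032 genes). An F test for any difference among the 4 genotypes called 19 of the 36, or 52.8%, against 31.1% of all genes kept. In DKO against Cre only cells 16 of the 36 fell (44.4%) and none rose, whereas 10.6% of all genes fell and 8.06% rose. Of the 16, 6 were preparatory and 4 pay-off enzymes of glycolysis. The median log2 fold change was -1.40 over the 36 genes and -0.00 over all genes. In DKO against Ikzf3 KO cells 21 fell (58.3%), where 9.85% of all genes fell, with a median of -1.47. These were 4 preparatory enzymes, 4 pay-off enzymes, 2 transporters, 2 glycogen enzymes, 7 HIF targets, Hif1a and Egln3. Against Ikzf1 KO cells only Gapdh and Pkm fell in DKO cells (5.56%, where 3.72% of all genes fell), with a median of -0.62. Fold changes on this scale understate the change of genes with low values. The comparisons share libraries and are not independent of each other.

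**Figure D1:**
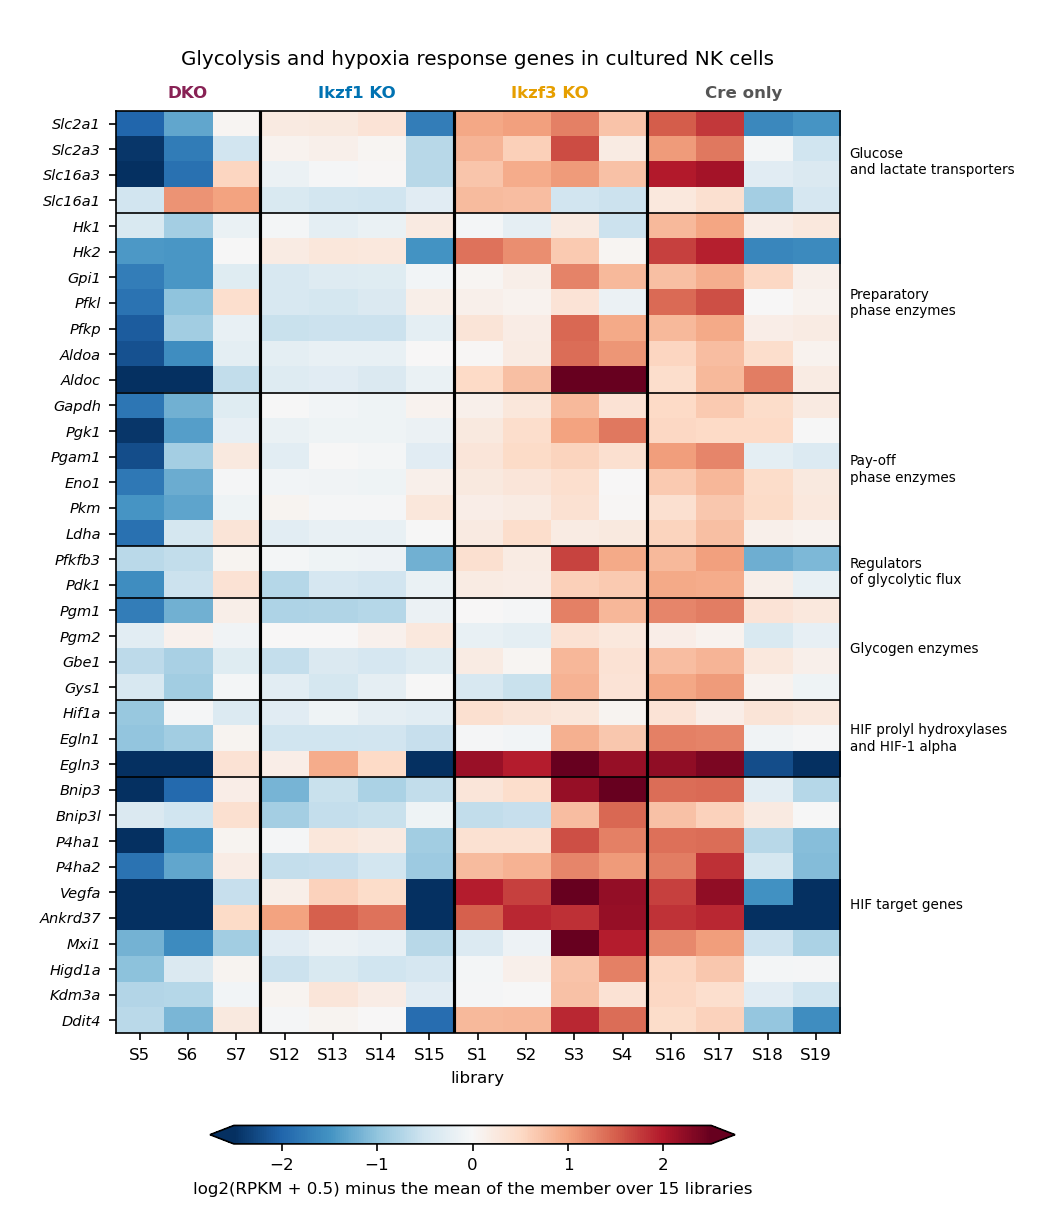
Heat map of the 36 genes (rows, by role) in the 15 libraries (columns, by genotype), as log2(RPKM + 0.5) minus the mean of the gene over the libraries, blue for lower and red for higher. The DKO libraries S5 and S6 are lower than S7 for most rows, the Cre only libraries S16 and S17 are higher than S18 and S19 in 32 of 36 rows, and the Ikzf1 KO library S15 is low for transporters and HIF targets.

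Enzymes of the preparatory phase fell in 6 of 7 cases in DKO against Cre only cells: Gpi1, Aldoc, Aldoa, Pfkp, Hk1 and Pfkl. Hk2 was the exception. Their median log2 fold change was -1.61. Aldoc, a brain-type isoform of the aldolase that cleaves fructose bisphosphate, moved most. It had 1.25, 4.06 and 26.2 RPKM in DKO libraries, 32.3, 33.3, 31.2 and 36.2 RPKM in Ikzf1 KO libraries, 57.5, 68.9, 278 and 267 RPKM in Ikzf3 KO libraries, and 54.7, 71.6, 98.5 and 46.9 RPKM in Cre only libraries. No DKO library reached the lowest Cre only library, and the Ikzf3 KO libraries S3 and S4 stood far above S1 and S2. The log2 fold change of DKO against Cre only cells was -3.46 ± 0.74 (SE, adjusted p = 0.00483 by limma).

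Gpi1 encodes the isomerase that turns glucose phosphate into fructose phosphate. It had 62.9, 76.7 and 170 RPKM in DKO libraries, 160, 169, 170 and 200 RPKM in Ikzf1 KO libraries, 219, 233, 501 and 369 RPKM in Ikzf3 KO libraries, and 354, 397, 302 and 230 RPKM in Cre only libraries. All DKO values lay below all Ikzf3 KO and Cre only values, and S7 reached the Ikzf1 KO range. Gpi1 averaged 103 ± 58.2 RPKM in DKO cells (SD, n = 3) and 321 ± 71.8 in Cre only cells (SD, n = 4), a log2 fold change of -1.74 ± 0.33 (adjusted p = 0.00237, limma). Aldoa, the main aldolase of most tissues, had 247, 379 and 939 RPKM in DKO libraries, 948, 975, 987 and 1130 RPKM in Ikzf1 KO libraries, 1140, 1280, 2950 and 2390 RPKM in Ikzf3 KO libraries, and 1620, 1910, 1520 and 1180 RPKM in Cre only libraries. The DKO libraries did not overlap with Ikzf3 KO or Cre only libraries, and the log2 fold change against Cre only was -1.79 ± 0.40 (adjusted p = 0.0062, limma). The identical values of its 2 rows and its pseudogenes leave the assignment of Aldoa reads uncertain.

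Pfkl and Pfkp encode subunits of phosphofructokinase, a main control point of the pathway. Pfkp had 8.95, 21.3 and 34.3 RPKM in DKO libraries, 26.6, 26.9, 26.8 and 33 RPKM in Ikzf1 KO libraries, 49.5, 44.8, 107 and 76.3 RPKM in Ikzf3 KO libraries, and 69.6, 76.8, 44.3 and 45.3 RPKM in Cre only libraries. DKO cells were below Cre only and Ikzf3 KO cells in every library, with a log2 fold change against Cre only of -1.58 ± 0.38 (adjusted p = 0.00998, limma). Pfkl had 11.9, 21.7 and 59.1 RPKM in DKO libraries, 33.4, 32.5, 34.3 and 48.8 RPKM in Ikzf1 KO libraries, 48.7, 47, 56.1 and 39.9 RPKM in Ikzf3 KO libraries, and 119, 137, 44.7 and 47.1 RPKM in Cre only libraries. Here S7 exceeded S18 and S19, so the groups overlapped, although the gene passed the test (-1.61 ± 0.47, adjusted p = 0.0274, limma).

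The 2 hexokinases, which trap glucose in the cell by phosphorylating it, differed in how their libraries spread. Hk1 had 32.4, 23.3 and 37.4 RPKM in DKO libraries, 40.6, 35.4, 37.6 and 49.5 RPKM in Ikzf1 KO libraries, 40.7, 36.2, 49.6 and 28.8 RPKM in Ikzf3 KO libraries, and 74, 84, 48.3 and 50.5 RPKM in Cre only libraries. It fell against Cre only cells in DKO cells (-1.02 ± 0.23, adjusted p = 0.00726, limma) and was the only gene of the 36 to fall in Ikzf3 KO cells (-0.71 ± 0.21, adjusted p = 0.042). The Ikzf3 KO call was lost under 11 alternatives, among them the fits without S2, S4, S12, S13, S14, S16 or S17 alone, and without both S16 and S17 the value was -0.37 ± 0.23 (adjusted p = 0.322, limma). Hk2, the inducible isoform, had 7.77, 7.68 and 21.8 RPKM in DKO libraries, 25.4, 27, 26.4 and 7.51 RPKM in Ikzf1 KO libraries, 57.2, 49.7, 34.8 and 22.8 RPKM in Ikzf3 KO libraries, and 73.3, 85.4, 6.77 and 6.91 RPKM in Cre only libraries. Its Cre only libraries differed 12.61-fold among themselves, S18 and S19 being as low as the lowest DKO libraries, and no comparison called it (DKO against Cre only -1.07 ± 0.82, adjusted p = 0.403, limma).

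Of the enzymes of the pay-off phase, 4 of 6 (Gapdh, Pgk1, Eno1 and Pkm) fell in DKO against Cre only cells, with a median log2 fold change of -1.49 over the 6. Gapdh (ENSMUSG00000057666, chromosome 6, 125161715 to 125166467, mm10, minus strand), which makes the NADH of glycolysis, had 117, 178 and 332 RPKM in DKO libraries, 407, 390, 382 and 437 RPKM in Ikzf1 KO libraries, 445, 498, 716 and 528 RPKM in Ikzf3 KO libraries, and 580, 646, 563 and 478 RPKM in Cre only libraries. The DKO libraries were below every library of the other genotypes. Gapdh averaged 209 ± 111 RPKM in DKO cells (SD, n = 3) and 567 ± 69.1 in Cre only cells (SD, n = 4), 2.95-fold lower in DKO cells (log2 fold change -1.56 ± 0.27, adjusted p = 0.00101, limma). It also fell against Ikzf1 KO cells (-1.08 ± 0.27, adjusted p = 0.0231, limma), a call lost in 6 fits that each left a library out. Gapdh is often taken as a constant standard, which it was not across these libraries.

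Pkm, pyruvate kinase of most proliferating cells, had 236, 264 and 607 RPKM in DKO libraries, 685, 644, 647 and 801 RPKM in Ikzf1 KO libraries, 733, 760, 856 and 672 RPKM in Ikzf3 KO libraries, and 871, 1050, 916 and 793 RPKM in Cre only libraries. Its DKO libraries too were below all others, with log2 fold changes of -1.43 ± 0.25 against Cre only (adjusted p = 0.00135, limma) and -1.04 ± 0.25 against Ikzf1 KO cells (adjusted p = 0.0208). The call against Ikzf1 KO cells was lost in 4 fits that each left a library out. Pgk1 (ENSMUSG00000062070, chromosome X, 106187100 to 106203699, mm10, plus strand) makes the first ATP of the pay-off phase. It had 79, 164 and 371 RPKM in DKO libraries, 380, 395, 397 and 388 RPKM in Ikzf1 KO libraries, 506, 582, 863 and 1070 RPKM in Ikzf3 KO libraries, and 609, 600, 602 and 425 RPKM in Cre only libraries. The Ikzf1 KO libraries lay between 380 and 397 RPKM while the DKO libraries spread 4.7-fold, and all DKO values lay below all others. Pgk1 was 3.27-fold lower in DKO than in Cre only cells (-1.71 ± 0.39, adjusted p = 0.00699, limma).

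Eno1, the enolase, had 122, 179 and 415 RPKM in DKO libraries, 400, 396, 392 and 463 RPKM in Ikzf1 KO libraries, 501, 523, 562 and 425 RPKM in Ikzf3 KO libraries, and 668, 751, 578 and 500 RPKM in Cre only libraries. The DKO range ended below the lowest Ikzf3 KO and Cre only libraries, and the log2 fold change against Cre only was -1.56 ± 0.30 (adjusted p = 0.00234, limma). Ldha, the lactate dehydrogenase subunit that favours lactate, had 239, 642 and 1100 RPKM in DKO libraries, 724, 770, 765 and 865 RPKM in Ikzf1 KO libraries, 1020, 1190, 1010 and 1040 RPKM in Ikzf3 KO libraries, and 1290, 1480, 956 and 931 RPKM in Cre only libraries. S7 fell among the Ikzf3 KO and Cre only libraries, and Ldha did not pass the test in DKO against Cre only cells (-1.05 ± 0.36, adjusted p = 0.0553, limma). Pgam1, the mutase between Pgk1 and Eno1, ranged over 15.5 to 86.8 RPKM in DKO libraries and 58.1 to 173 RPKM in Cre only libraries and was not called either (adjusted p = 0.0559). Several of these enzymes have processed pseudogenes or a near-identical retrogene copy, so their reads could be split between copies.

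**Figure D2:**
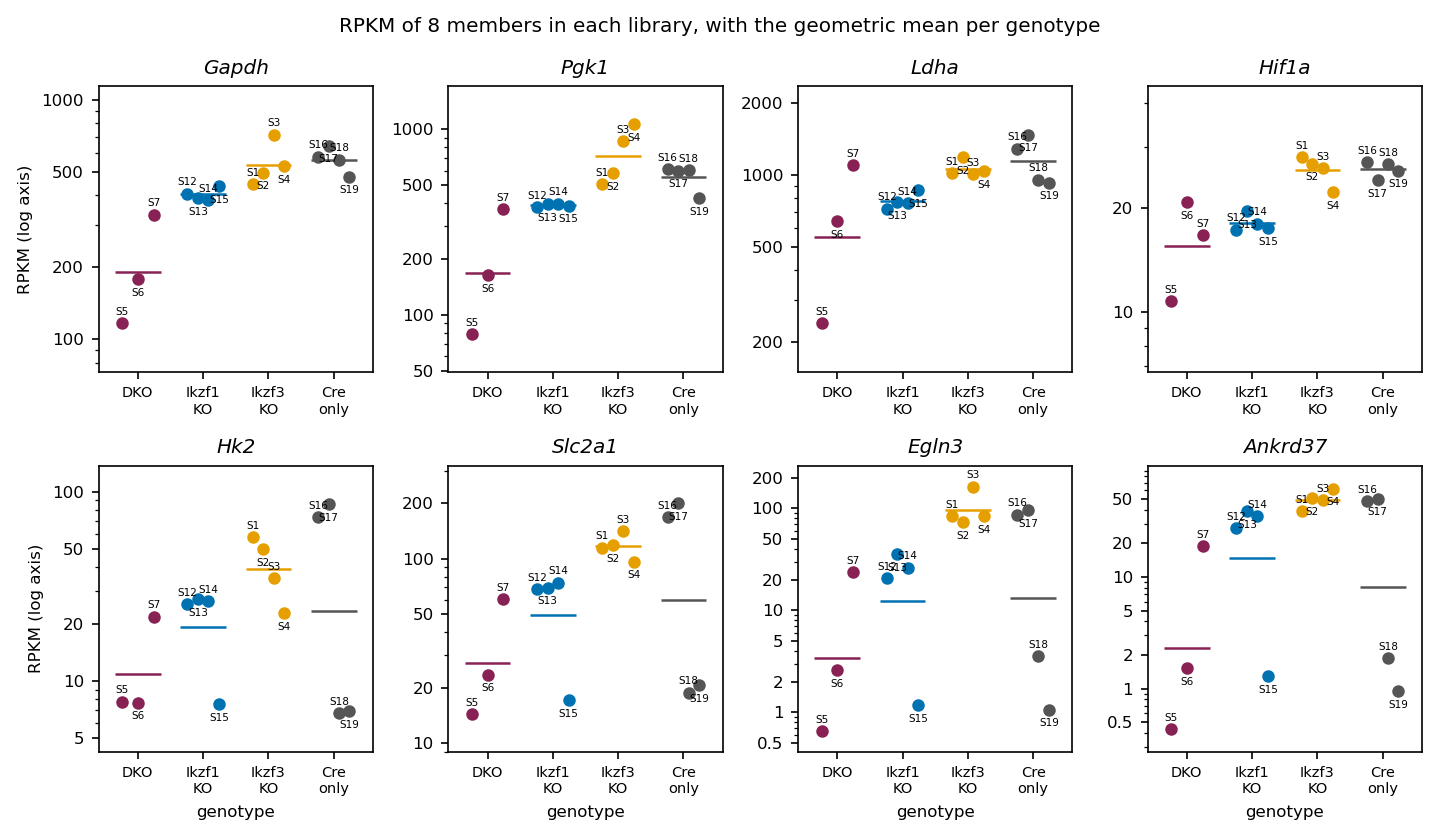
RPKM on a log axis of 8 genes in each library (points, labelled S1 to S19), with the geometric mean of each genotype as a line, in the order DKO, Ikzf1 KO, Ikzf3 KO, Cre only. Gapdh and Pgk1 separate the DKO libraries from all others, while Hk2, Slc2a1, Egln3 and Ankrd37 place the Cre only libraries S18 and S19 and the Ikzf1 KO library S15 with the lowest DKO libraries.

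Of the 4 transporters, Slc2a3 and Slc16a3 fell in DKO against Cre only cells. Slc2a3 encodes GLUT3, a glucose carrier of high affinity, and had 11.2, 18.1 and 44.5 RPKM in DKO libraries, 66.4, 67.6, 64 and 38.1 RPKM in Ikzf1 KO libraries, 112, 94.7, 193 and 71.8 RPKM in Ikzf3 KO libraries, and 131, 157, 59.8 and 44 RPKM in Cre only libraries. S7 reached the level of S19, and the log2 fold change was -2.01 ± 0.49 (adjusted p = 0.0111, limma). Slc16a3 encodes MCT4, which exports lactate, and had 1.17, 10.9 and 59.5 RPKM in DKO libraries, 37.3, 40.1, 41.8 and 25.2 RPKM in Ikzf1 KO libraries, 66.6, 78.3, 86.6 and 68.6 RPKM in Ikzf3 KO libraries, and 163, 176, 33.6 and 32.1 RPKM in Cre only libraries. Its DKO libraries spread 50.73-fold, with S7 above S18 and S19, and its call (-2.85 ± 0.89, adjusted p = 0.0381, limma) rested on wide groups.

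Slc2a1 encodes GLUT1, the main glucose carrier of activated lymphocytes, and had 14.4, 23.6 and 60.5 RPKM in DKO libraries, 68.8, 69.7, 74.5 and 17.2 RPKM in Ikzf1 KO libraries, 115, 119, 141 and 96.5 RPKM in Ikzf3 KO libraries, and 168, 200, 18.8 and 20.6 RPKM in Cre only libraries. The Cre only libraries S16 and S17 were the highest of the 15 and S18 and S19 were within the DKO range, so that the mean difference (-1.12 ± 0.80, adjusted p = 0.364, limma) was far within the spread. Slc16a1 (MCT1), which carries lactate and pyruvate either way, was the only transporter with a higher mean in DKO cells, at 34.2 ± 16.9 RPKM (SD, n = 3) against 19.8 ± 7.76 RPKM in Cre only cells (SD, n = 4), and did not pass (adjusted p = 0.278). Neither flux regulator was called against Cre only cells. Pfkfb3, which makes the activator of phosphofructokinase, had 6.47 to 11.1 RPKM in DKO libraries, 4.33 to 10.3 in Ikzf1 KO libraries, 12.3 to 35.3 in Ikzf3 KO libraries and 4.28 to 22.1 in Cre only libraries. Pdk1, which keeps pyruvate out of mitochondria by inhibiting pyruvate dehydrogenase, had 9.08 to 35.6 RPKM in DKO libraries, 16.7 to 24.3 in Ikzf1 KO libraries, 31.4 to 43.7 in Ikzf3 KO libraries and 24.1 to 53.3 in Cre only libraries.

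Among the glycogen enzymes, Gbe1 and Pgm1 fell in DKO against Cre only cells, and Pgm2 and Gys1 were not called. Gbe1 (ENSMUSG00000022707, chromosome 16, 70313949 to 70569716, mm10, plus strand), the branching enzyme, had 7.76, 6.91 and 10.1 RPKM in DKO libraries, 8.2, 9.69, 9.29 and 9.95 RPKM in Ikzf1 KO libraries, 14.6, 13.1, 22.7 and 16.4 RPKM in Ikzf3 KO libraries, and 21.9, 23.1, 15.2 and 13.7 RPKM in Cre only libraries. The DKO and Ikzf1 KO ranges both ended below every Cre only and Ikzf3 KO library. It was the only gene of the 36 called in Ikzf1 KO against Cre only cells (-0.93 ± 0.19, adjusted p = 0.0109, limma), and its value in DKO cells was -1.10 ± 0.21 (adjusted p = 0.0024). Pgm1, which links glucose phosphate to glycogen, had 8.82, 12.9 and 33.6 RPKM in DKO libraries, 17.5, 17.7, 18.3 and 27.3 RPKM in Ikzf1 KO libraries, 30.3, 29.7, 73.7 and 53.9 RPKM in Ikzf3 KO libraries, and 71.3, 73.9, 38.7 and 36.3 RPKM in Cre only libraries. S7 lay close to S18 and S19, and Pgm1 was 3.25-fold lower in DKO than in Cre only cells (-1.70 ± 0.43, adjusted p = 0.0123, limma). Pgm2, a phosphopentomutase as well, varied little, between 18.1 and 30.5 RPKM over the 15 libraries. Gys1, the synthase, had 5.88 to 10.8 RPKM in DKO libraries, 8.17 to 11.2 in Ikzf1 KO libraries, 7.49 to 20.9 in Ikzf3 KO libraries and 10.4 to 24 in Cre only libraries.

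Hif1a itself was the steadiest gene of the list, with a pooled SD within genotypes of 0.22 on the log2 scale. Hif1a (chromosome 12, 73901375 to 73947530, mm10, plus strand) had 10.8, 20.8 and 16.7 RPKM in DKO libraries, 17.3, 19.6, 18 and 17.5 RPKM in Ikzf1 KO libraries, 28, 26.8, 26 and 22.2 RPKM in Ikzf3 KO libraries, and 27.1, 24, 26.7 and 25.6 RPKM in Cre only libraries. The DKO and Ikzf1 KO libraries were below every Ikzf3 KO and Cre only library. In DKO cells it averaged 16.1 ± 5.03 RPKM (SD, n = 3), against 25.9 ± 1.36 in Cre only cells (SD, n = 4), a log2 fold change of -0.71 ± 0.17 (adjusted p = 0.00948, limma). In Ikzf1 KO cells the value was -0.50 ± 0.16 (adjusted p = 0.0752). HIF-1 alpha is controlled mainly through its protein, which was not measured here.

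Egln1, the main oxygen-sensing hydroxylase, had 32.8, 35.4 and 68.5 RPKM in DKO libraries, 46.1, 45.8, 46.6 and 43.7 RPKM in Ikzf1 KO libraries, 63.7, 62.1, 122 and 105 RPKM in Ikzf3 KO libraries, and 157, 156, 61.1 and 64.2 RPKM in Cre only libraries. S7 exceeded S18 and S19, and the call in DKO against Cre only cells was close to the threshold (-1.19 ± 0.37, adjusted p = 0.0358, limma). Egln3 (ENSMUSG00000035105, chromosome 12, 54178981 to 54203860, mm10, minus strand), a hydroxylase that is itself a HIF target, had 0.656, 2.6 and 23.8 RPKM in DKO libraries, 20.6, 35.3, 26.2 and 1.17 RPKM in Ikzf1 KO libraries, 83.9, 73.4, 163 and 84.3 RPKM in Ikzf3 KO libraries, and 86.8, 96.1, 3.54 and 1.06 RPKM in Cre only libraries. Within Cre only cells the highest library was 90.89-fold above the lowest, within DKO cells 36.37-fold and within Ikzf1 KO cells 30.16-fold, whereas the Ikzf3 KO libraries differed 2.22-fold. Egln3 fell in DKO against Ikzf3 KO cells (-4.44 ± 1.45, adjusted p = 0.0436, limma), and without S3 and S4 the value was -4.16 ± 1.87 (adjusted p = 0.142). It was not called against Cre only cells (-1.78 ± 1.45, adjusted p = 0.436).

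None of the 10 HIF targets outside glycolysis was called in DKO against Cre only cells, although all 10 had a lower mean in DKO cells and the median log2 fold change was -1.41. In DKO against Ikzf3 KO cells 7 of the 10 fell: Bnip3, P4ha1, P4ha2, Vegfa, Mxi1, Higd1a and Ddit4. Vegfa, the vascular growth factor and a standard HIF target, had 0.251, 0.252 and 4.22 RPKM in DKO libraries, 7.21, 10, 9.13 and 0.705 RPKM in Ikzf1 KO libraries, 26.7, 22.3, 45.9 and 31.8 RPKM in Ikzf3 KO libraries, and 22.5, 31.9, 1.94 and 0.642 RPKM in Cre only libraries. It was 22.4-fold lower in DKO than in Ikzf3 KO cells (-4.48 ± 1.09, adjusted p = 0.00991, limma). Ankrd37 (ENSMUSG00000050914, chromosome 8, 45996902 to 46005707, mm10, minus strand), an ankyrin repeat gene used as a hypoxia marker, had 0.436, 1.53 and 18.8 RPKM in DKO libraries, 27.5, 38.9, 35.3 and 1.3 RPKM in Ikzf1 KO libraries, 38.7, 51.1, 49 and 62 RPKM in Ikzf3 KO libraries, and 47.8, 50.5, 1.88 and 0.954 RPKM in Cre only libraries. As for Egln3, S15, S18 and S19 were near the level of S6. Its difference between DKO and Ikzf3 KO cells did not pass (-3.91 ± 1.38, adjusted p = 0.0597, limma). At this depth the lowest values, in S5, rested on 10 reads for Ankrd37 and 16 for Vegfa.

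The other HIF targets ranged less widely than Vegfa and Ankrd37 within DKO, Ikzf1 KO and Cre only cells. Within Ikzf3 KO cells Mxi1 (8.15-fold), Bnip3 (5.4-fold) and Bnip3l (4.2-fold) ranged more widely than Vegfa (2.06-fold) and Ankrd37 (1.6-fold). Bnip3, a mitophagy receptor, had 2.55 to 20 RPKM in DKO libraries, 7.58 to 11.9 in Ikzf1 KO libraries, 21.9 to 118 in Ikzf3 KO libraries and 10.6 to 47.9 in Cre only libraries. Its relative Bnip3l had 29.8 to 55.6 RPKM in DKO libraries, 23.2 to 39.2 in Ikzf1 KO libraries, 27.4 to 115 in Ikzf3 KO libraries and 41.7 to 70.6 in Cre only libraries, and was called in none of the comparisons over all libraries. Ddit4, an inhibitor of mTOR signalling, had 47.5 to 126 RPKM in DKO libraries, 27.9 to 111 in Ikzf1 KO libraries, 187 to 390 in Ikzf3 KO libraries and 35.5 to 158 in Cre only libraries. It was the only gene of the 36 whose Ikzf3 KO libraries all exceeded all Cre only libraries (2.78%, against 7.68% of all genes). Ddit4 was not called there (1.61 ± 0.53, adjusted p = 0.0555, limma).

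P4ha1 and P4ha2, catalytic subunits of the collagen prolyl hydroxylase, averaged 28.3 ± 26.6 and 5.86 ± 4.83 RPKM in DKO cells (SD, n = 3) and 113 ± 49.1 and 20.4 ± 2.88 RPKM in Ikzf3 KO cells (SD, n = 4). Mxi1, an antagonist of MYC, averaged 1.79 ± 0.538 RPKM in DKO cells (SD, n = 3) and 14.3 ± 12.6 in Ikzf3 KO cells (SD, n = 4). S3 and S4 raised the Ikzf3 KO mean, with 29.4 and 19.8 RPKM against 3.61 and 4.28 in S1 and S2. All Ikzf3 KO libraries exceeded all DKO libraries for this gene. Higd1a, a mitochondrial protein of the respiratory chain, averaged 15.2 ± 5.73 RPKM in DKO cells (SD, n = 3) and 30.5 ± 13.3 in Ikzf3 KO cells (SD, n = 4). Kdm3a, a histone demethylase, had 7.48 to 12.3 RPKM in DKO libraries, 10.4 to 15.9 in Ikzf1 KO libraries, 12.6 to 21.7 in Ikzf3 KO libraries and 8.99 to 18.7 in Cre only libraries, and was not called.

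The genes varied more between libraries of the same genotype than most genes did. Their median pooled SD within genotypes was 0.621 on the log2 scale, against 0.276 over all genes kept. By genotype, the median SD was 0.927 in DKO libraries against 0.21 over all genes, 0.199 in Ikzf1 KO libraries against 0.123, 0.496 in Ikzf3 KO libraries against 0.363, and 0.579 in Cre only libraries against 0.174. The share of the sum of squares that lay between genotypes had a median of 52% for the 36 genes and 46.3% for all genes. Roles differed in it. The median share was 70.4% for pay-off enzymes and 68.7% for preparatory enzymes, but 49.6% for HIF targets and 40.5% for transporters. The largest pooled SDs were those of Egln3 (2.159), Ankrd37 (2.064), Vegfa (1.618) and Slc16a3 (1.324), and the smallest were those of Hif1a and Pgm2 (0.231).

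**Figure D3:**
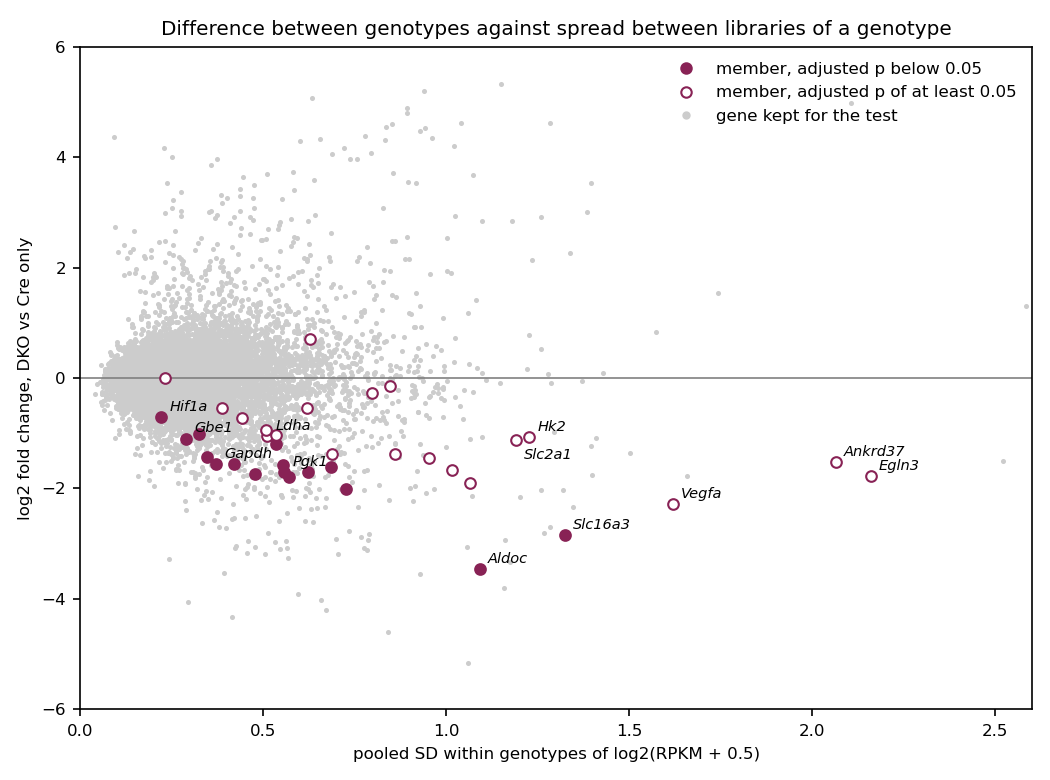
Log2 fold change of DKO against Cre only cells (vertical) against the pooled SD of log2(RPKM + 0.5) within genotypes (horizontal) for the 36 genes, filled where the adjusted p was below 0.05, and for the other genes kept (grey). Among the 36 genes, Gbe1, Gapdh and Hif1a lie at small SDs (0.287, 0.371 and 0.22, where the median of all genes kept is 0.276). Vegfa, Ankrd37 and Egln3 lie at the largest SDs of the 36, 1.618 or more, with no call. The axes leave out 1 gene.

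Libraries of a genotype were ordered alike across the genes. In DKO cells S7 was the highest library for 33 of 36 genes, the exceptions being Slc16a1, Pgm2 and Hif1a, against 20.3% of all genes, and S5 was the lowest for 29 (80.6%, against 43.1% of all genes). In Cre only cells S16 and S17 both exceeded S18 and S19 for 32 of 36 genes, and never the reverse, where 29.9% of all genes had the first order and 28.7% the reverse. The exceptions were Aldoc, Pgk1, Pkm and Hif1a. In Ikzf3 KO cells S3 and S4 both exceeded S1 and S2 for 23 genes (63.9%, against 36.6% of all genes), and both fell below them for Hk2, Slc16a1 and Hif1a. In Ikzf1 KO cells S15 was the lowest library for 15 genes (41.7%, against 32.4% of all genes), mainly transporters and HIF targets, and the highest for 17 (47.2%, against 33.2% of all genes), mainly enzymes. Cell cycle genes shared only some of these orders. S5 was the lowest DKO library for 13 of 15 of them (86.7%), as it was for most of the 36 genes. The other orders differed. S16 and S17 exceeded S18 and S19 for 0 of 15 and were below them for 8, S3 and S4 were below S1 and S2 for 12, and S7 was the highest DKO library for 1. The summed RPKM of these 15 genes was 888 to 1230 in DKO libraries, 1100 to 1140 in Ikzf1 KO libraries, 539 to 933 in Ikzf3 KO libraries and 512 to 1060 in Cre only libraries. Their part in the results was not tested, and the labels name no batch.

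Without regard to means, all DKO libraries were below all Cre only libraries for 13 of 36 genes (36.1%, against 19% of all genes). They were below all Ikzf3 KO libraries for 25 (69.4%, against 11.9% of all genes), and below all Ikzf1 KO libraries for 6 (16.7%, against 17.3% of all genes). All Ikzf1 KO libraries were below all Cre only libraries for 14 (38.9%, against 13.2% of all genes).

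The comparisons with Cre only cells depended on which of its libraries were used. Against S18 and S19 alone (without S16 and S17), 6 genes fell in DKO cells: Aldoc, Eno1, Gapdh, Gbe1, Gpi1 and Pkm, or 16.7%, where 5.79% of all genes fell, and the median log2 fold change was -0.60. Against S16 and S17 alone (without S18 and S19), 27 of 36 fell in DKO cells (75%, where 6.96% of all genes fell), with a median of -1.89. Those 6 genes fell under every alternative tried. Gapdh, for example, had log2 fold changes of -1.44 ± 0.34 against S18 and S19 (adjusted p = 0.0172, limma) and -1.68 ± 0.34 against S16 and S17 (adjusted p = 0.00611). Slc2a1 had 0.47 ± 0.61 (adjusted p = 0.69) against S18 and S19 and -2.72 ± 0.62 (adjusted p = 0.0118) against S16 and S17, so its sign turned with the choice, as it did for Hk2, Egln3, Ankrd37, Pfkfb3, Ddit4 and Pgm2. Of the DKO libraries, leaving out S5 or S6 lowered the count from 16 to 11 and 10 (30.6% and 27.8%). Leaving out S7 raised it to 22 (61.1%), and leaving out the Cre only library S19 raised it to 23 (63.9%). Of all genes, 18.7% were called over all libraries, and 18.7% and 9.8% without S5 or S6. Without S7 the share was 12.7%, and without S19 it was 18%.

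In Ikzf3 KO against Cre only cells over all libraries, Hk1 fell, 1 of 36 genes (2.78%, where 7.88% of all genes fell), none rose (where 6.3% of all genes rose), and the median log2 fold change was 0.21. Values with wide errors were not called, such as 2.67 ± 1.34 for Egln3 (adjusted p = 0.175, limma), 2.38 ± 1.28 for Ankrd37 (adjusted p = 0.203) and 2.20 ± 1.01 for Vegfa (adjusted p = 0.14). Against S18 and S19 alone, 8 genes were higher in Ikzf3 KO cells: Ankrd37, Ddit4, Egln3, Hk2, P4ha2, Pfkfb3, Slc2a1 and Vegfa (22.2%, where 2.81% of all genes rose). Egln3 then had a log2 fold change of 5.27 ± 1.22 (adjusted p = 0.0299, limma) and Pfkfb3 one of 1.98 ± 0.41 (adjusted p = 0.0191). Against S16 and S17 alone, Hk1 alone fell (2.78%, where 3.48% of all genes fell) and Egln3 had a value of 0.07 ± 1.2 (adjusted p = 0.975). Without the Ikzf3 KO libraries S3 and S4, Bnip3l was the only gene to fall (2.78%, where 6.45% of all genes fell).

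In Ikzf1 KO against Cre only cells Gbe1 was the single gene to fall (2.78%, where 2.78% of all genes fell), and the median log2 fold change was -0.58, with a lower mean in Ikzf1 KO cells for 91.7% of the genes against 50.8% of all genes. The count depended on the fit. With array weights, which give less weight to libraries that depart from their genotype, 25 of 36 fell (69.4%, where 19.3% of all genes fell), although the estimation of the weights stopped before it converged. Against S18 and S19 alone none of the 36 was called by limma (0%, where 1.39% of all genes fell). An unadjusted p below 0.05 was found for 5. This count too was not set beside all genes and cannot be called particular to the 36. Against S16 and S17 alone 6 fell: Egln1, Gbe1, Hk1, P4ha2, Pfkl and Pgm1 (16.7%, where 2.12% of all genes fell). The Ikzf1 KO library S15 held 17.2 RPKM of Slc2a1 and 1.17 RPKM of Egln3, against 18.8 and 3.54 RPKM in the Cre only library S18. Its Gapdh level of 437 RPKM was the highest of its genotype.

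DKO and Ikzf3 KO cells were compared with no Cre only library, although those libraries entered the shared estimate of spread. Aldoc, Gapdh, Gbe1, Gpi1, Pgk1 and Slc2a3 fell under every alternative tried. Without S3 and S4 the count was 11 of 36 (30.6%, where 9.43% of all genes fell), and Bnip3, Ddit4, Egln3, Higd1a, Mxi1, P4ha1, P4ha2, Pgm1, Slc16a3 and Vegfa were no longer called. Of these, Vegfa (-4.17 ± 1.38, adjusted p = 0.0519, limma), Slc16a3 (-2.80 ± 1.14, adjusted p = 0.107) and P4ha2 (-1.81 ± 0.74, adjusted p = 0.107) kept values close to those over all libraries with a larger error, while Mxi1 (-0.98 against -2.22 over all libraries), Higd1a (-0.48 against -0.96) and Bnip3 (-1.82 against -2.86) had smaller ones. Leaving out S5 or S6 gave 12 and 11 calls (33.3% and 30.6%), leaving out S3 or S4 gave 13 each (36.1%), and leaving out S7 gave 28 (77.8%). Of all genes, 20.1% were called over all libraries, and 16% and 11.7% without S5 or S6. The shares were 13.9% and 18.4% without S3 or S4, and 14.4% without S7.

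**Figure D4:**
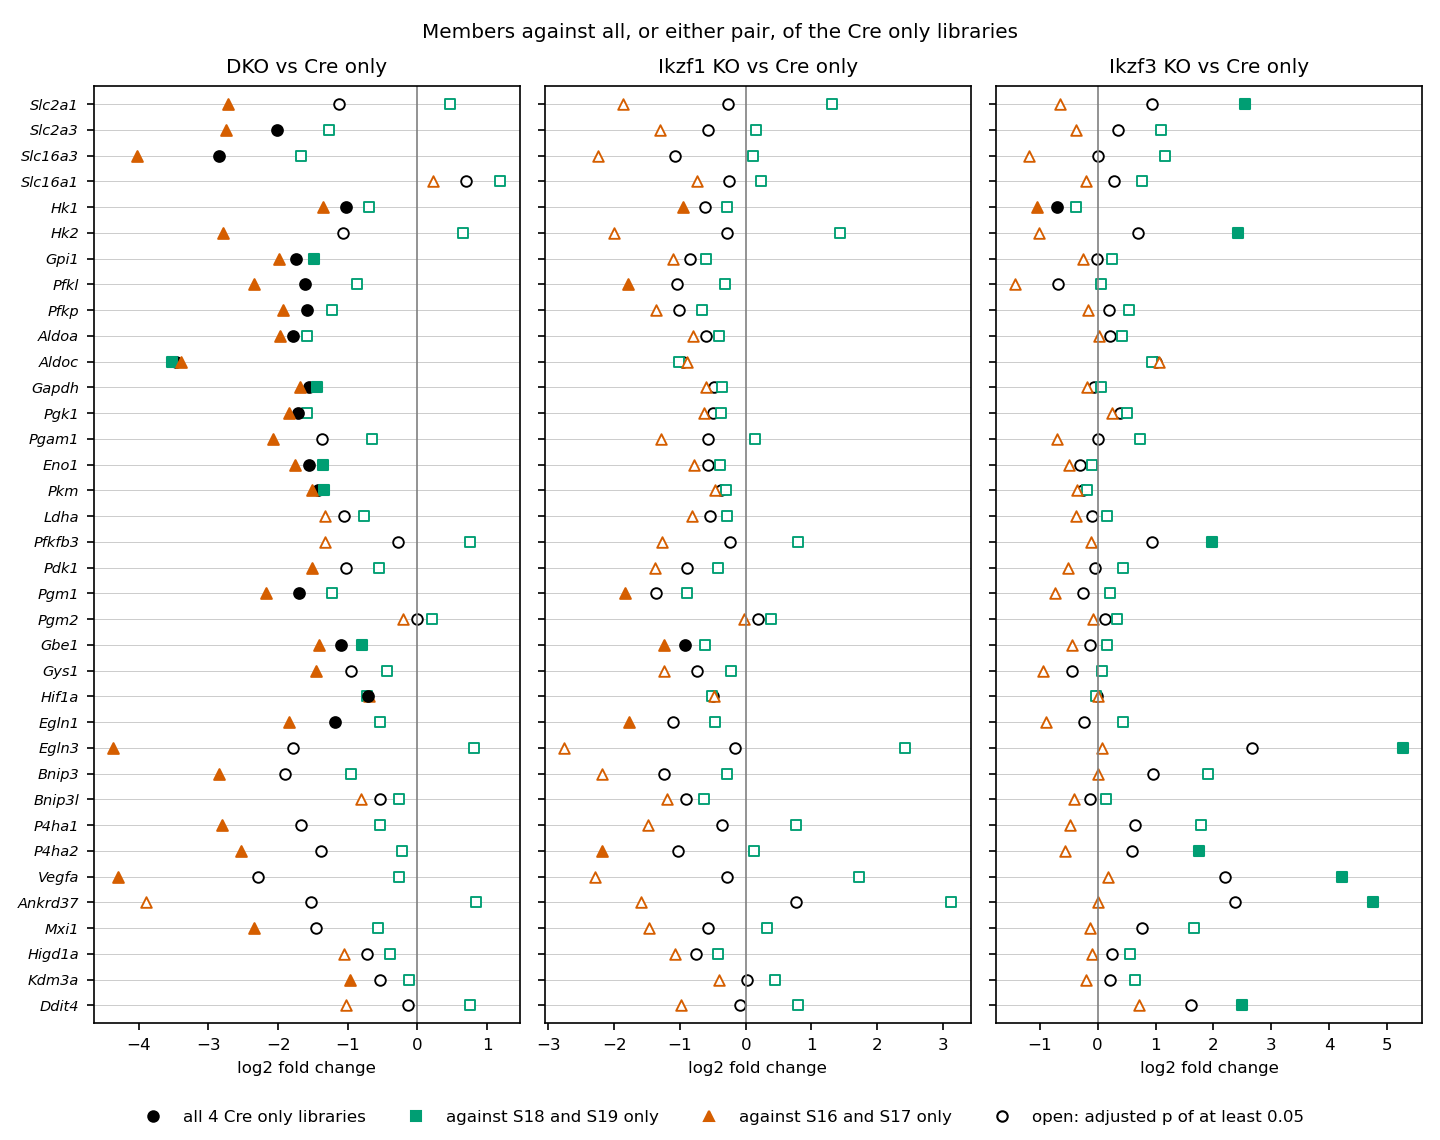
Log2 fold changes of the 36 genes in DKO, Ikzf1 KO and Ikzf3 KO cells against all Cre only libraries (black), S18 and S19 only (green) and S16 and S17 only (orange), filled where the adjusted p was below 0.05. Aldoc, Gapdh, Pkm and Hif1a in DKO cells hardly move with the choice, while Egln3, Ankrd37, Vegfa, Hk2 and Slc2a1 move most, and all but Vegfa change sign in the DKO panel.

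Whether DKO cells departed from the sum of the effects of the single deletions was tested as an interaction. None of the 36 genes was called (0%, where 6.55% of all genes were called), and the median was -0.84. An unadjusted p below 0.05 was found for 9. That count was not set beside the one for all genes, so it cannot be called particular to these genes. The values nearest the threshold were those of Aldoc (-3.50 ± 1.00, adjusted p = 0.0517, limma) and Pgk1 (-1.59 ± 0.53, adjusted p = 0.0916). Without S16 and S17, 6 genes were called (16.7%, where 4.42% of all genes were called). All were lower in DKO cells than the sum: Ankrd37, Egln3, Hk2, Slc2a1, Slc2a3 and Vegfa. A fit of recovered reads, added after the data were seen, called Aldoc alone (2.94%, where 6.43% of all genes were called).

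Lists of neighbouring pathways were read in DKO against Cre only cells, where 18.7% of all genes were called. Of 24 other glycolysis and pyruvate genes tested 4 rose and 1 fell (20.8% called). Slc2a6, a lysosomal hexose carrier, averaged 31.9 ± 8.53 RPKM in DKO cells (SD, n = 3) and 8.79 ± 2.77 in Cre only cells (SD, n = 4), a log2 fold change of 1.83 ± 0.24 (adjusted p = 9.88e-05, limma). Ldhb, the subunit that favours pyruvate, averaged 1.57 ± 0.226 RPKM in DKO cells (SD, n = 3) and 0.109 ± 0.076 in Cre only cells (SD, n = 4), at levels far below those of Ldha (1.77 ± 0.18, adjusted p = 1.08e-05). Dld, of the pyruvate dehydrogenase complex, rose (0.56 ± 0.11, adjusted p = 0.00307), as did Mpc2, of the pyruvate carrier (adjusted p = 0.0416), and Galk1 fell (adjusted p = 0.0335). Of 10 pentose phosphate genes 10% were called, Prps2, which rose (0.56 ± 0.12, adjusted p = 0.00633).

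HIF pathway regulators outside the list gave 1 call of 10 (10%) in DKO against Cre only cells. Siah2, a ubiquitin ligase that acts on prolyl hydroxylases, averaged 5.16 ± 1.82 RPKM in DKO cells (SD, n = 3) and 10.7 ± 1.26 in Cre only cells (SD, n = 4), with a log2 fold change of -1.03 ± 0.19 (adjusted p = 0.0022, limma). Among 22 other HIF targets 6 fell and 3 rose (40.9% called, against 18.7% of all genes). Bhlhe40, a transcription repressor (-1.21 ± 0.25, adjusted p = 0.00364), Plod2, a lysyl hydroxylase (-1.55 ± 0.37, adjusted p = 0.00906), and Nfil3, a factor of NK cell development (-1.89 ± 0.50, adjusted p = 0.0174), were the clearest of those that fell, and Cxcr4, a chemokine receptor, rose (2.91 ± 0.85, adjusted p = 0.0276). Of 19 regulators of the MYC and mTOR pathways 3 fell (15.8%). Mlxip, a glucose-sensing factor (-0.90 ± 0.18, adjusted p = 0.00272), and Mycn (-2.17 ± 0.46, adjusted p = 0.00452) led them, with Srebf1 (-0.93 ± 0.21, adjusted p = 0.00757). Of 15 cell cycle genes Ccne2, Rrm2 and Tyms rose (20%) and none fell.

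The same lists were read in the other comparisons with Cre only cells. In Ikzf3 KO cells 3 of 10 pentose phosphate genes fell (30%, where 7.88% of all genes fell), G6pdx (-0.74 ± 0.17, adjusted p = 0.0129, limma), Pgd (-0.97 ± 0.26, adjusted p = 0.0242) and Taldo1 (-0.42 ± 0.13, adjusted p = 0.0474), and Hk3, a hexokinase of blood cells, rose (2.16 ± 0.30, adjusted p = 0.000552). In Ikzf1 KO cells, where 2.78% of all genes fell and 3.54% rose, Pdp1, which activates pyruvate dehydrogenase, fell (-1.03 ± 0.22, adjusted p = 0.0115, limma), Hmox1, a haem oxygenase, fell (-0.96 ± 0.20, adjusted p = 0.0117), and the cell cycle genes Cdc20, Bub1b and Cdk1 rose.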

How the data were processed

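Polyadenylated RNA of cultured NK cells was sequenced as 75 bp single-end reads, per the labels' protocols. Build mm10, STAR, featureCounts and limma 3.34.9 are listed in the submitters' processing notes, with no settings. The authors deposited RPKM for 11736 genes and 15 libraries, with no counts. The column names give the genotype and not the culture. The columns were taken as cultured cells because DKO and Ikzf3 KO were only cultured and 4 samples of Ikzf1 KO and of Cre only are found in the cultured groups alone. The 6 directly sorted samples were not analysed here.

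RPKM was taken as log2(RPKM + 0.5) for the 10032 genes at or above an RPKM of 1 in 3 or more libraries. These were fitted in limma 3.58.1 (R 4.3.3) with a mean per genotype and a mean-variance trend with robust moderation, and p-values were adjusted over all genes of a contrast. The fit was tested on simulated data, drawn as independent normal values with the same SD for a gene in every genotype. Unequal spread between genotypes and shifts shared by the genes of a library were not simulated. RPKM times GENCODE exon length gave whole reads, within 0.02 read, for 11291 genes (96.2%), and hence the depth. Fits of these reads with voom were an added alternative. They leave out Mxi1 and Pgam1 and called 16 genes in DKO against Cre only cells (47.1%, where 22.3% of all genes were called). Counting error matters only for the lowest values.

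The genes and the other lists were chosen with earlier results of these data known. Values per library are given for genes called against Cre only, those with the 4 largest SDs and 6 well-known genes. From the other lists up to 4 called genes per comparison are named. Alternatives changed the scaling, pseudocount, filter, moderation, weights, genotypes fitted and libraries kept. Figures were made in Python 3.11.15 with matplotlib 3.10.9.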

Additional observations from a re-analysis of the deposited data

Results flagged for a closer look

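In groups of 4 libraries, a library was singled out where its gap to the nearest other, divided by the range of the group, exceeded Dixon's critical value at 95%. Of 108 groups 12 had such a library, where the nominal level is 5%, and the genes are not independent of each other. The share of such groups over all genes was not worked out, so the 12 cannot be called particular to these genes.

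The Ikzf1 KO library S15 accounted for 9 of the 12. Over all genes, S15 was the lowest of its genotype for 32.4% and the highest for 33.2%. It was the lowest of its genotype for Slc2a1 (17.2 RPKM), Slc2a3 (38.1 RPKM), Hk2 (7.51 RPKM), Pfkfb3 (4.33 RPKM) and Ddit4 (27.9 RPKM), and the highest for Pfkl (48.8 RPKM), Pfkp (33.0 RPKM), Eno1 (463 RPKM) and Pgm1 (27.3 RPKM). S15 was also the deepest library, at 21.25 megareads. The part of depth in this was not tested.

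The Ikzf3 KO library S3 was the highest of its genotype for Egln3 (163 RPKM), and the Ikzf3 KO library S2 for Ldha (1190 RPKM). The Cre only library S19 was the lowest of its genotype for Pgk1 (425 RPKM).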

How the results depend on the processing

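No paired analysis was possible because the columns carry only the numbers S1 to S19, not the replicate numbers of the labels. No called gene reversed its direction under any alternative. With array weights, whose estimation stopped before it converged, the genes called numbered 28 in DKO against Cre only (16 in the reported fit), 12 in DKO against Ikzf1 KO (2), 25 for Ikzf1 KO (1) and 8 for Ikzf3 KO (1), both against Cre only, 8 for the departure from additivity (0) and 29 in the F test (19). Over all genes, array weights called 30.5% in DKO against Cre only (18.7% in the reported fit), 20.7% in DKO against Ikzf1 KO (7.48%), 37.3% for Ikzf1 KO (6.32%) and 21.9% for Ikzf3 KO (14.2%), both against Cre only, 14.4% for additivity (6.55%) and 57.4% in the F test (31.1%). With only the compared genotypes fitted, they numbered 12 in DKO against Ikzf3 KO (21), 17 for Ikzf1 KO and 0 for Ikzf3 KO, each against Cre only, where 6.81%, 20.2% and 4.48% of all genes were called. Quantile normalization gave 0 in Ikzf3 KO against Cre only and 5 in DKO against Ikzf1 KO, where 13.9% and 8.51% of all genes were called. Without S3 and S4 there were 11 in DKO against Ikzf3 KO, 8 in DKO against Ikzf1 KO, 9 in Ikzf1 KO against Cre only and 1 for additivity. Of all genes, 19.8%, 21.5%, 17.2% and 10.2% were called in that order. The 8 genes (22.2%) were thus close to the share of all genes. Without S16 and S17 there were 6 in DKO, 0 for Ikzf1 KO and 8 for Ikzf3 KO, all against Cre only, and 6 for additivity. In that order, 10.9%, 3.67%, 5.56% and 4.42% of all genes were called. Without S18 and S19 there were 27 in DKO and 6 in Ikzf1 KO against Cre only, and 31 in the F test. The shares of all genes were 13.6%, 5.89% and 25.3%. Recovered reads gave 1 for additivity, where 6.43% of all genes were called. The median log2 fold change in Ikzf3 KO against Cre only cells, 0.21, turned to -0.29 with array weights, -0.07 without S3 and S4 and -0.30 without S18 and S19. The cause of these shifts was not tested.

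Leaving out each library in turn gave 10 to 23 calls in DKO against Cre only, 0 to 9 in DKO against Ikzf1 KO, 11 to 28 in DKO against Ikzf3 KO, 1 to 4 for Ikzf1 KO and 0 to 2 for Ikzf3 KO, both against Cre only, 0 to 6 for additivity and 13 to 25 in the F test. Of all genes, 9.8% to 23.1%, 3.36% to 11.3% and 11.7% to 30.8% were called in the DKO comparisons, in that order. The shares were 3.31% to 8.25% for Ikzf1 KO, 8.22% to 29.9% for Ikzf3 KO, 3.45% to 8.39% for additivity and 22.7% to 46% in the F test. Depth limits only values near those of Ankrd37 and Vegfa in S5.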
